A study of Mus musculus with 4 samples.

Results

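The p53 pathway and the cell cycle inhibitors were examined in rib cartilage cells of Trim28 knockout mouse embryos. The set held 32 genes of the 55228 in the count table, chosen by name: the p53 gene Trp53, its regulators Mdm2 and Mdm4, known p53 target genes, and 4 genes for inhibitors of cyclin-dependent kinases (CDKs). The RNA-seq libraries were made from total RNA of C57BL/6 rib cartilage at stage E17.5, 2 labelled Trim28 KO and 2 labelled WT. The labels give neither the allele nor a Cre driver, a treatment or a litter. They do not say either that the libraries are from different embryos, so the p-values rest on a spread between samples that may be technical. TRIM28 is a corepressor that KRAB zinc finger proteins bring to DNA.

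The transcription factor p53 is held at low levels by MDM2, which marks it for degradation, and is further restrained by the related protein MDM4. DNA damage and other stress free it to switch on genes that stop the cell cycle (such as Cdkn1a), kill the cell (such as Bax and Bbc3) or repair DNA (such as Ddb2 and Xpc), and it switches on Mdm2 as a feedback. In human cell lines TRIM28 is known to bind MDM2 and to favour the removal of p53. In growth cartilage, CDK inhibitors, above all Cdkn1c, are known for their part in the exit of chondrocytes from the cell cycle.

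The p53 protein binds DNA at the p53 response element, a pair of decamers (10 bases each). The pattern reads the same on both strands, so a match covers both. The promoter windows of RefSeq (GRCm38.p6, 250 bases before to 50 after a transcription start) were available for 24 of the 32 genes, in 33 windows. The 8 genes without a window were Zmat3, Xpc, Tnfrsf10b, Ddb2, Rrm2b, Pmaip1, Perp and Trp53inp1. Adjoining decamers with at most 1 mismatch in 20 bases stood in 3 of the 33 windows (9.09%), those of Cdkn1a, Ccng1 and Gtse1, against 29 of all 32851 windows (0.0883%). They are printed below because these 3 genes have a close match to the whole element at a start. Capitals mark the 20 bases, of which 19 match in each, and coordinates are those of the capitals.
Cdkn1a, chr17:29090928-29090947, plus strand: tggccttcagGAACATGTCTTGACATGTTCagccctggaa
Ccng1, chr11:40755462-40755481, minus strand: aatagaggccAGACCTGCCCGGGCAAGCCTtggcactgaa
Gtse1, chr15:85859945-85859964, plus strand: gggaaaccggGAGCAAGTTGGGGCTTGCCT

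The Cdkn1a element began 51 bases before the upstream of 2 annotated starts, which lie 2790 bases apart. The Ccng1 element began 195 bases before its start, and that of Gtse1 began 1 base before the downstream of 2 annotated starts. Single decamers are far more common and were found in 2745 windows (8.36%), and in 11 of the 33 windows of the set (33.3%). For comparison, the windows of Trp53, Mdm2 and Bax held a single perfect decamer, in capitals below, and no adjoining pair. A match of letters describes the sequence only. Introns and other bases outside the windows were not searched, so a gene without a pair here may have one elsewhere.
Trp53, chr11:69580284-69580293, plus strand: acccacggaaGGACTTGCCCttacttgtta
Mdm2, chr10:117710935-117710944, minus strand: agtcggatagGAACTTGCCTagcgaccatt
Bax, chr7:45467090-45467099, minus strand: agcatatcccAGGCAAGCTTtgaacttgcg

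Library totals ran from 18616896 to 20082123 counts, and the 32 genes together took 22306 to 25004 of them. All 8 chondrocyte markers were present and none was called, where 17.4% of all genes tested were. Their summed level was 81541 and 104047 CPM (counts scaled to library size, with TMM factors) in Trim28 KO, against 110514 and 81368 in WT. Col2a1 alone gave 58700 and 74388 CPM of this in Trim28 KO, and 79631 and 55512 CPM in WT. The log2 fold changes of the 8 markers ran from -0.45 (Matn3) to 0.55 (Acan). Trim28 itself stood at 51.1 and 54.5 CPM in Trim28 KO, against 225 and 186 CPM in WT, a 3.89-fold fall that matched the labels (adjusted p = 2.28e-07, edgeR). Reads of Trim28 were thus still present in each Trim28 KO library. Of 10 macrophage markers 7 were higher in Trim28 KO, with summed levels of 277 to 470 CPM in Trim28 KO and 146 to 150 CPM in WT. All 7 tested osteoclast markers were lower (226 to 227 CPM in Trim28 KO and 848 to 1020 CPM in WT), as were all 6 tested red cell markers. Skeletal muscle markers summed to 1256 and 490 CPM in Trim28 KO, and to 651 and 861 CPM in WT, with Trim28 KO 1 the highest. Tnnt3 was the only muscle marker called, and it was lower in Trim28 KO (log2 fold change of -0.91, adjusted p = 0.00611, edgeR). Markers of other leukocytes summed to 1.49 and 0.753 CPM in Trim28 KO, and to 2.23 and 19.7 CPM in WT, with WT 2 the highest. In bulk RNA, fewer cells of a type and less RNA per cell cannot be told apart, and the part of these cells in the values below was not tested.

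Of the 32 genes, 31 had enough reads for a test, and Cdkn2a did not. Tnfrsf10b, Bbc3, Pmaip1, Aen and Cdkn2b rose in Trim28 KO, and Perp, Plk2, Ddb2 and Mdm4 fell (adjusted p under 0.05 over all 16639 genes tested, edgeR's quasi-likelihood test). These 9 genes are 29.0% of the 31, against 17.4% called among all genes tested. By direction, 16.1% were higher, against 8.64% of all genes, and 12.9% were lower, against 8.77%. The genotypes did not overlap in 24 of the 31, or 77.4%, against 58.0% of all genes. The median log2 fold change of the set, Trim28 KO over WT, was 0.20, and that of all genes was -0.02. By role, 11 of 14 death genes had a value above 0, as did 4 of 7 tested arrest genes and 1 of 7 repair and redox genes, against 48.1% of all genes. Their medians were 0.46, 0.20 and -0.20 in the same order. These counts and medians describe the lists and carry no test. The genes and their roles were chosen with earlier results of these data known.

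**Figure D1:**
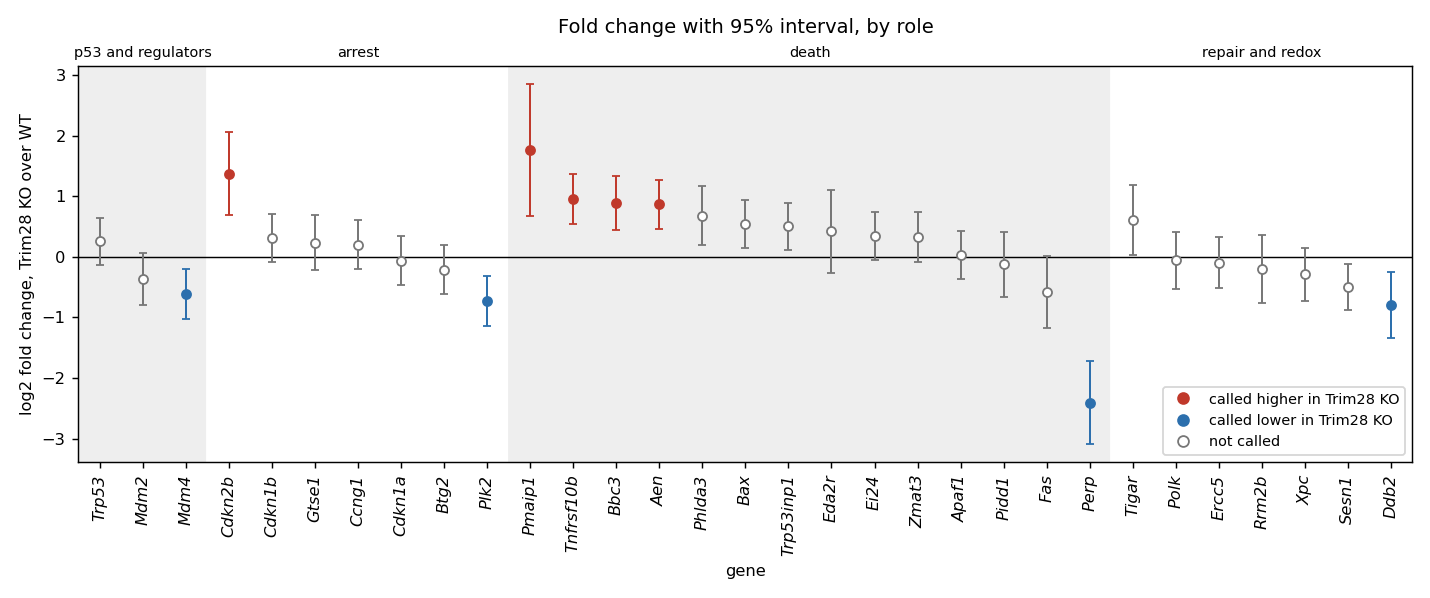
Log2 fold change of the 31 tested genes, Trim28 KO over WT, grouped by role and ordered by size within a role; bars are 95% intervals of edgeR's quasi-likelihood fit, and filled points passed the test. Most death genes lie above 0, with Perp far below at -2.41, while 6 of 7 repair and redox genes lie below 0.

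Trp53 was measured at 65.1 and 70.0 CPM in Trim28 KO, against 56.0 and 57.3 CPM in WT. The groups did not overlap, but the difference was not called (n = 2 libraries each, log2 fold change of 0.25 ± 0.19, where ± gives the SE throughout, 95% interval from -0.13 to 0.64, adjusted p = 0.388, edgeR). Mdm2, the ubiquitin ligase that marks p53 for degradation and is itself a p53 target, had 39.9 and 47.0 CPM in Trim28 KO, against 44.1 and 67.7 CPM in WT. Here the groups overlapped, since WT 1 lay between the Trim28 KO libraries, and the log2 fold change of -0.36 ± 0.21 was not called (adjusted p = 0.251, edgeR). It was 0.0041 without WT 2 and -0.62 without WT 1, where it was called (adjusted p = 0.0323, edgeR). Mdm4, the other restraint on p53 (chr1:132959484-133030561 on GRCm38), had 48.2 and 58.1 CPM in Trim28 KO, against 68.1 and 94.5 CPM in WT. It fell 1.53-fold (log2 fold change of -0.61 ± 0.20, adjusted p = 0.0380, edgeR), with WT 2 well above WT 1. That call was lost by DESeq2 (adjusted p = 0.0531) and limma-voom (adjusted p = 0.0622), at a log2 fold change of -0.60 in both. It was also lost without WT 2 (-0.33), Trim28 KO 1 (-0.48) or Trim28 KO 2 (-0.75).

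Per kilobase of exon, Mdm2 stood at 0.487 and 0.535 of the level of Trp53 in Trim28 KO, and at 0.626 and 0.940 in WT. The same ratio for Mdm4 was 0.202 and 0.227 in Trim28 KO, and 0.332 and 0.451 in WT. Neither ratio overlapped between genotypes. With 2 libraries each, an exact two-sided permutation test cannot go below p = 0.333, and the ratios were chosen after the values were seen.

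**Figure D2:**
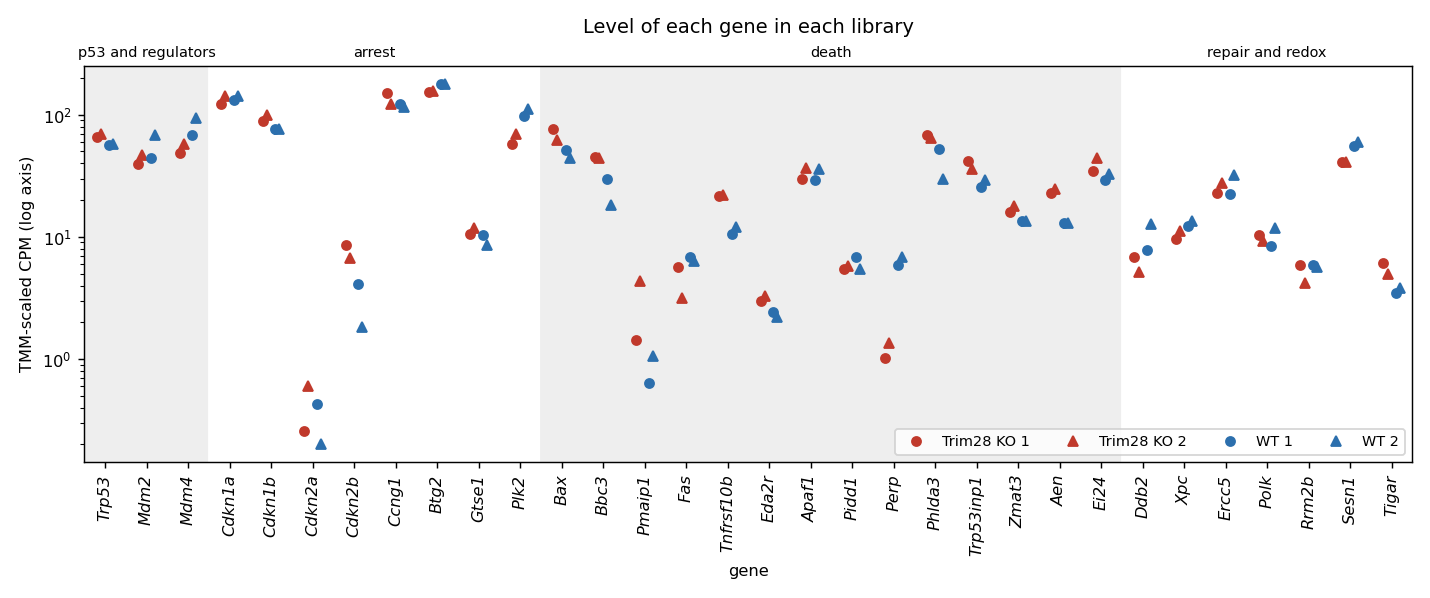
TMM-scaled CPM of each of the 32 genes in each library on a log axis, grouped by role; red marks Trim28 KO and blue WT, with circles for library 1 and triangles for library 2 of each genotype. Cdkn1a lies between 122 and 143 CPM in all 4 libraries, and Cdkn2a below 1 CPM in all of them.

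Among the genes that arrest the cell cycle, the best known p53 target did not pass the test. Cdkn1a encodes p21, the CDK inhibitor through which p53 stops the cycle (chr17:29090976-29100727), and its upstream start carries the near-perfect element printed above. It had 122 and 141 CPM in Trim28 KO, against 132 and 143 CPM in WT. The libraries overlapped, and the 95% interval of its log2 fold change of -0.06 ran from -0.47 to 0.34 (adjusted p = 0.865, edgeR). Ccng1, which encodes the p53-induced cyclin G1, had 151 and 122 CPM in Trim28 KO, against 122 and 116 CPM in WT (log2 fold change of 0.20 ± 0.20, adjusted p = 0.540, edgeR). Gtse1, whose product is made in S and G2 phase and restrains p53, had 10.5 and 11.7 CPM in Trim28 KO, against 10.4 and 8.54 CPM in WT (0.23 ± 0.22, adjusted p = 0.521, edgeR). None of the 3 genes with adjoining decamers at a start was called, which with 17.4% of all genes called is no result about these 3 genes. Among the called genes, Tnfrsf10b, Pmaip1, Perp and Ddb2 had no window and could not be searched. The upper ends of the 95% intervals were 0.34, 0.61 and 0.69 in log2 units for Cdkn1a, Ccng1 and Gtse1.

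Cdkn2b, which encodes the inhibitor p15 of CDK4 and CDK6 (chr4:89306299-89311039), rose 2.59-fold. Its counts were 166 and 134 in Trim28 KO, against 77 and 36 in WT, or 8.55 and 6.72 CPM against 4.09 and 1.82 CPM in WT. Both Trim28 KO libraries lay above both WT libraries, and the libraries of WT differed from each other by more than those of Trim28 KO. The log2 fold change was 1.37 ± 0.33 (adjusted p = 0.00694, edgeR). It was 2.09 without WT 1 and 0.93 without WT 2, and the call was lost without Trim28 KO 1 (1.20, adjusted p = 0.131, edgeR).

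Its neighbour Cdkn2a, which encodes both p16 and the p53 activator p19Arf in different reading frames, had 5 and 12 counts in Trim28 KO, against 8 and 4 in WT. Counts by gene name do not separate the 2 products. The genotypes overlapped, and at these counts the gene was left out by the filter and not tested. Plk2, a polo-like kinase induced by p53 (chr13:110395046-110400844), had 57.2 and 69.5 CPM in Trim28 KO, against 98.4 and 112 CPM in WT. It fell 1.66-fold without overlap (log2 fold change of -0.73 ± 0.20, adjusted p = 0.0113, edgeR), no longer called when Trim28 KO 1 was left out (adjusted p = 0.180, edgeR).

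Cdkn1b, which encodes the CDK inhibitor p27, had 89.5 and 99.5 CPM in Trim28 KO, against 77.0 and 75.8 CPM in WT, and was not called (0.31 ± 0.19, adjusted p = 0.299, edgeR). Btg2, an antiproliferative p53 target, had 153 and 156 CPM in Trim28 KO, against 178 and 179 CPM in WT, and was not called either (-0.21 ± 0.19, adjusted p = 0.502, edgeR). The groups of both genes were narrow. They did not overlap, as was so for 58.0% of all genes tested.

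On a scale of CPM per kilobase of exon, which allows genes to be compared, Btg2 was the highest of the 32 genes in both genotypes, at 56.3 in Trim28 KO and 65.2 in WT. Among CDK inhibitors, Cdkn1c, which encodes p57 and is not one of the 32, was at 696 in Trim28 KO and 595 in WT. Far below it lay Cdkn1a, at 37.0 in Trim28 KO and 38.6 in WT, and Cdkn2d, an inhibitor of CDK4 and CDK6, at 34.5 in Trim28 KO and 43.8 in WT. Cdkn1a made up 4.51% and 5.31% of the summed level of Cdkn1a, Cdkn1b and Cdkn1c in Trim28 KO, and 4.80% and 7.62% in WT. Of the exon bases of Cdkn1c, 30.7% are shared with an opposite-strand gene, and reads there were not counted for either gene. None of the 4 other CDK inhibitor genes on the list (Cdkn1c, Cdkn2c, Cdkn2d and Cdkn3) was called by edgeR, DESeq2 or limma-voom, and 0 of the 4 had an unadjusted p under 0.05 by edgeR, where 17.4% of all genes were called and 30.1% had such a p. Of 14 genes for G1 cyclins, their kinases, the retinoblastoma family and E2F factors, the machinery that these inhibitors act on, 0 were called by edgeR, DESeq2 or limma-voom, and 2 (14.3%) had an unadjusted p under 0.05 by edgeR. Their median log2 fold change was 0.12. Exon lengths count every annotated isoform, so a gene whose long isoforms are rare reads low on this scale. Mdm4 has 14798 bases, and the levels of its isoforms were not measured.

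**Figure D3:**
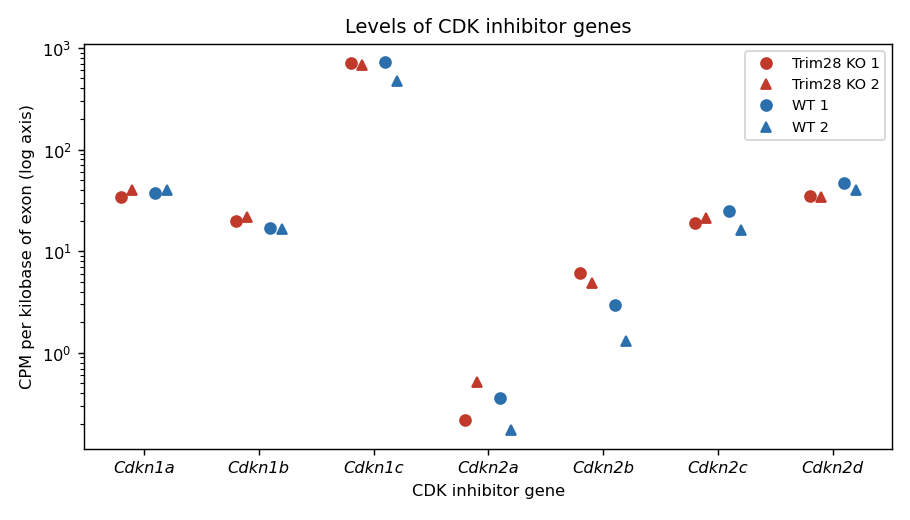
Levels of 7 CDK inhibitor genes in CPM per kilobase of exon, on a log axis, with Trim28 KO in red and WT in blue. Cdkn1c lies above all others in every library, and Cdkn2b, the one called gene of the 7, stands at a mean of 5.49 in Trim28 KO and 2.12 in WT.

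Of the 14 death genes, all of which were tested, 4 rose (28.6%, against 8.64% of all genes) and 1 fell. Bbc3 encodes PUMA, a BH3-only protein that opens mitochondria to apoptosis (chr7:16308393-16318205), and had 44.8 and 44.3 CPM in Trim28 KO, against 30.0 and 18.2 CPM in WT. The Trim28 KO libraries were nearly equal while the WT libraries were well apart. It rose 1.85-fold (log2 fold change of 0.89 ± 0.21, adjusted p = 0.00632, edgeR). It was called by DESeq2 and limma-voom but not without WT 2 (0.60, adjusted p = 0.0567, edgeR), Trim28 KO 1 (0.88) or Trim28 KO 2 (0.90).

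Pmaip1, which encodes the BH3-only protein NOXA (chr18:66458533-66465565), had 28 and 87 counts in Trim28 KO, against 12 and 21 in WT. Trim28 KO 2 was far above the other libraries, and Trim28 KO 1 only slightly above WT 2. It rose 3.40-fold (log2 fold change of 1.76 ± 0.51, adjusted p = 0.0263, edgeR). Without Trim28 KO 2 the log2 fold change was 0.76 and was not called (adjusted p = 0.475, edgeR), and limma-voom did not call the gene with all libraries (1.58, adjusted p = 0.0720).

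Tnfrsf10b, the mouse receptor for the death ligand TRAIL (chr14:69767472-69784411), had 21.7 and 21.8 CPM in Trim28 KO, against 10.6 and 12.0 CPM in WT. Libraries of a genotype lay close together, and it rose 1.93-fold (log2 fold change of 0.95 ± 0.20, adjusted p = 0.00153, edgeR). Aen, a p53-induced nuclease that digests DNA in apoptosis (chr7:78895854-78911209), had 22.8 and 24.4 CPM in Trim28 KO, against 13.01 and 12.9 CPM in WT, again without overlap (0.86 ± 0.20, adjusted p = 0.00297, edgeR). Both were called in all 12 alternative analyses.

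Several further death genes lay just outside the threshold. Bax, the pore-forming effector of mitochondrial apoptosis, had 77.0 and 62.0 CPM in Trim28 KO, against 51.5 and 43.9 CPM in WT (log2 fold change of 0.54 ± 0.19, adjusted p = 0.0534, edgeR). Phlda3, an inhibitor of the survival kinase AKT, had 67.8 and 64.1 CPM in Trim28 KO, against 52.8 and 29.8 CPM in WT (0.67 ± 0.23, adjusted p = 0.0548, edgeR). Trp53inp1, a p53-induced nuclear protein tied to apoptosis and autophagy, had 41.9 and 36.2 CPM in Trim28 KO, against 25.6 and 29.4 CPM in WT (0.50 ± 0.19, adjusted p = 0.0682, edgeR). None of these 3 overlapped between genotypes, as was so for 58.0% of all genes tested. Other annotated genes share 12.2% of the exon bases of Bax, and 7.68% of those of Cdkn1a, and reads there were not counted for either gene. The log2 fold change of Phlda3 was 1.17 and called without WT 1, the higher of the WT libraries, and 0.35 and not called without WT 2 (adjusted p = 0.351, edgeR). That of Bax was 0.69 and called without WT 1, and 0.38 and not called without Trim28 KO 1 (adjusted p = 0.387, edgeR).

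Eda2r, a receptor of the TNF receptor family (0.42), Ei24, a protein of the endoplasmic reticulum (0.34), and Zmat3, an RNA-binding zinc finger protein (0.32), had log2 fold changes above 0 and were not called. Their genotypes did not overlap, as was so for 58.0% of all genes tested. Apaf1, the scaffold of the apoptosome, had 30.0 and 36.7 CPM in Trim28 KO, against 29.4 and 35.8 CPM in WT, and Pidd1, which activates caspase-2, had a log2 fold change of -0.12. Fas, the other classical death receptor, had 5.66 and 3.16 CPM in Trim28 KO, against 6.80 and 6.36 CPM in WT (-0.58 ± 0.29, adjusted p = 0.178, edgeR). The 2 death receptor genes Tnfrsf10b and Fas thus had fold changes of opposite sign, of which that of Tnfrsf10b was called.

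Perp, a p53 target whose product sits in desmosomes (chr10:18845020-18857073), had the largest log2 fold change, in either direction, of the 31 tested genes. It had 20 and 27 counts in Trim28 KO, against 111 and 135 in WT, or 1.03 and 1.35 CPM against 5.89 and 6.82 CPM in WT. The 5.30-fold fall had a log2 fold change of -2.41 ± 0.33 (adjusted p = 1.19e-05, edgeR), and it was called in all 12 alternatives. Perp is also an epithelial gene, and the summed level of 10 keratinocyte markers was 11.4 and 12.5 CPM in Trim28 KO, against 18.4 and 13.6 CPM in WT. The defining keratins Krt5, Krt14 and Krt15 were all under 1 CPM in every library, and Krt10 (7.62 and 6.98 CPM in Trim28 KO, against 10.2 and 6.82 CPM in WT) was the largest contributor to that sum in every library. Of the 3 markers tested, the desmosome gene Dsp was called, with 21 and 62 counts in Trim28 KO, against 95 and 99 counts in WT.

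**Figure D4:**
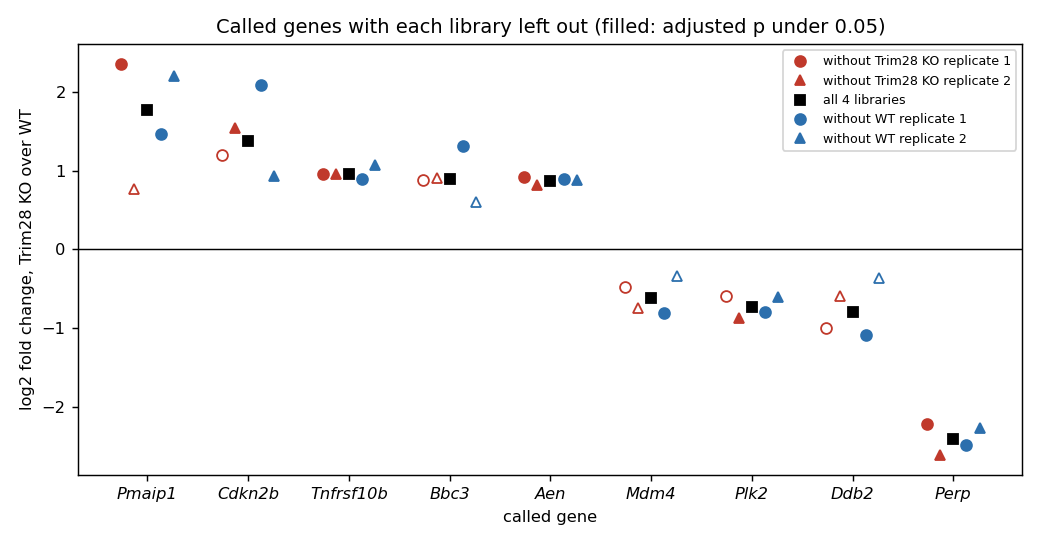
Log2 fold change, Trim28 KO over WT, of the 9 called genes with all libraries (black squares) and with each library left out; filled marks had an adjusted p under 0.05 by edgeR. Tnfrsf10b, Aen and Perp are filled throughout, and Pmaip1 drops to 0.76 without Trim28 KO 2.

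Among the repair and redox genes 1 of 7 was called (14.3%), a share near the 17.4% of all genes. Ddb2, which recognises ultraviolet damage in chromatin (chr2:91211572-91236982), had 6.80 and 5.12 CPM in Trim28 KO, against 7.81 and 12.8 CPM in WT. WT 1 lay close to Trim28 KO 1 and WT 2 well above both. It fell 1.73-fold (log2 fold change of -0.79 ± 0.26, adjusted p = 0.0393, edgeR), and the call was lost without WT 2 (-0.36), Trim28 KO 1 (adjusted p = 0.0930) or Trim28 KO 2 (-0.60), by DESeq2 (adjusted p = 0.111) and by limma-voom (adjusted p = 0.0806). Of its exon bases, 23.8% are shared with Acp2 on the opposite strand. Counting did not use strand, and reads there were not counted for either gene. Acp2 had 49.2 and 50.9 CPM in Trim28 KO, against 48.7 and 53.03 CPM in WT.

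Sesn1, a stress-induced inhibitor of mTORC1, had 40.7 and 40.9 CPM in Trim28 KO, against 55.5 and 59.8 CPM in WT. The libraries of each genotype lay close together, and it missed the threshold (log2 fold change of -0.50 ± 0.18, adjusted p = 0.0629, edgeR). Xpc, the partner of Ddb2 in damage recognition (-0.29), Ercc5, an endonuclease of nucleotide excision repair (-0.10), Polk, a translesion polymerase (-0.06), and Rrm2b, the p53-induced subunit of ribonucleotide reductase (-0.20), were not called. Tigar, a phosphatase that diverts sugar from glycolysis, was the one repair or redox gene with a value above 0, at 6.13 and 4.97 CPM in Trim28 KO, against 3.50 and 3.79 CPM in WT (0.60 ± 0.28, adjusted p = 0.148, edgeR).

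A second list held 30 other genes of the p53 pathway, of which 28 were tested. In Trim28 KO 5 rose and 3 fell, or 28.6% of those tested against 17.4% of all genes, and their median log2 fold change was -0.08. The p53 relatives Trp63 and Trp73 had at most 5 counts in any library. The kinases that signal DNA damage to p53, Atm, Atr, Chek1 and Chek2, had log2 fold changes from -0.19 to 0.13, and none was called.

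Gdf15, a secreted stress signal, had 6.44 and 6.42 CPM in Trim28 KO, against 2.18 and 1.82 CPM in WT, and rose with a log2 fold change of 1.68 ± 0.30 (adjusted p = 2.80e-04, edgeR). Sesn2, the close relative of Sesn1, had 23.4 and 26.4 CPM in Trim28 KO, against 14.6 and 10.2 CPM in WT (log2 fold change of 1.005 ± 0.21, adjusted p = 0.00147, edgeR). Sesn1 and Sesn2 thus had fold changes of opposite sign, and only that of Sesn2 was called. Their relative Sesn3 had a log2 fold change of -0.38 (adjusted p = 0.224, edgeR), with overlap between genotypes. Ddit4, another inhibitor of mTORC1, rose by 1.14 ± 0.22 (adjusted p = 7.37e-04, edgeR), and Ephx1, a detoxifying epoxide hydrolase, rose by 0.91 ± 0.19 (adjusted p = 0.00139, edgeR). Gdf15, Sesn2 and Ddit4 are also known to be induced by other stress pathways than p53.

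Gadd45a, a p53 target of arrest and repair, had 13.1 and 11.3 CPM in Trim28 KO, against 22.3 and 23.03 CPM in WT, and fell (log2 fold change of -0.90 ± 0.20, adjusted p = 0.00252, edgeR), no longer called when Trim28 KO 2 was left out (adjusted p = 0.0624, edgeR). Of its exon bases 19.1% are shared with an opposite-strand gene. Epha2, a receptor tyrosine kinase, fell by 1.19 on the log2 scale (adjusted p = 8.56e-05, edgeR).

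Among Bcl2l1, Bcl2 and Mcl1, genes for survival proteins that oppose Bax and Bbc3, 1 rose and 1 fell. Of all genes tested, 17.4% were called, and so few genes give no result about survival genes as a group. Bcl2l1, which encodes BCL-XL, had 66.5 and 72.5 CPM in Trim28 KO, against 42.3 and 43.7 CPM in WT, and rose (log2 fold change of 0.69 ± 0.18, adjusted p = 0.0103, edgeR), a call lost without either Trim28 KO library (adjusted p = 0.0516 and 0.0911, edgeR). Bcl2 had 13.9 and 18.1 CPM in Trim28 KO, against 25.2 and 23.4 CPM in WT, and fell (-0.60 ± 0.20, adjusted p = 0.0399, edgeR), a call lost without any 1 of the 4 libraries and by DESeq2 and limma-voom. Mcl1 was not called (-0.40 ± 0.21, adjusted p = 0.198, edgeR). Per kilobase of exon, the level of Bax was 3.37 and 2.49 times that of Bcl2l1 in Trim28 KO, and 3.55 and 2.92 times in WT, so that this ratio overlapped. The level of Bbc3 was 0.297 and 0.328 of that of Mcl1 in Trim28 KO, and 0.139 and 0.112 in WT, without overlap. These ratios were chosen after the values were seen and were not tested.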

How the data were processed

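The authors deposited raw counts per gene name. Per the file headers, featureCounts 1.6.4 summed read pairs over the exons of each gene name of GENCODE M23 (mm10), and the command set neither strand nor the counting of multi-mapping or shared reads. Exon lengths came from the same deposited table. The aligner is not given in the sources used here. Positions came from GENCODE M21 (GRCm38, the assembly of mm10) and promoter windows from RefSeq.

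Genes were kept by edgeR's filterByExpr (16639 of 55228), scaled by TMM, and tested for Trim28 KO against WT with the quasi-likelihood method of edgeR 4.0.16 (R 4.3.3), with robust dispersions and genotype as the only term. Benjamini-Hochberg adjustment covered all genes tested. The standard error is the log2 fold change divided by the square root of F. The 32 genes, their roles, the lists and the rule for named genes (all 32, Trim28 and every called gene of the other pathway lists) were chosen with earlier results of these data known. Other genes are named after their values were seen. The steps were run on counts simulated with the dispersions of the same fit. That run checks the steps alone, and neither the design nor whether the libraries are independent. Alternatives were RLE factors, library size alone, no filter, a filter of 5 CPM in 2 libraries, DESeq2 1.42.0, limma-voom (limma 3.58.1), a replicate block, leaving out each library and, chosen after the data were seen, a crossed block. The libraries of a genotype differed beyond counting error (chi-square per degree of freedom of 26.4 in Trim28 KO and 33.6 in WT) and were each kept as 1 sample. The 95% intervals come from the edgeR fit and include the spread between libraries.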

Additional observations from a re-analysis of the deposited data

How the results depend on the processing

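Of the 9 called genes of the set, Tnfrsf10b, Aen and Perp were called in all 12 alternatives and 6 lost the call in at least 1. Mdm2, Bax, Phlda3, Trp53inp1 and Sesn1 were called in at least 1, and 17 uncalled genes in none. With library size alone 8 of the 32 were higher (7 of them death genes) and 2 lower, with none (0) lower among repair genes or among the core of Trp53, Mdm2 and Mdm4. That scaling also gave more higher and fewer lower calls over all genes (1681 and 1247, against 1438 and 1460 in the main fit). DESeq2 and limma-voom each gave 2 lower, again with 0 core and 0 repair genes, and the stricter filter gave 2 repair genes lower. Lower calls over all genes were 1042 by DESeq2 and 1241 by limma-voom, also fewer than in the main fit. The stricter filter gave 1172 lower of 11804 genes tested. Leaving out 1 library gave 3 to 7 higher and 1 to 5 lower: 2 to 6 death genes higher and 1 lower; 0 to 1 arrest genes each way; 0 to 2 core genes and 0 to 1 repair genes lower; and 4 to 5 higher and 1 to 3 lower among the other pathway genes. Over all genes these gave 702 to 1442 higher and 572 to 1406 lower, the fewest without Trim28 KO 1. Across all 12 alternatives, medians ranged from 0.39 to 0.53 for death, 0.05 to 0.27 for arrest, -0.31 to -0.13 for repair and -0.62 to 0.0041 for core genes. When a library was left out the sign changed for 7 genes, in each case without a call for the changed sign: Mdm2 (-0.62 to 0.0041), Cdkn1a (-0.17 to 0.0456), Apaf1 (-0.11 to 0.21), Pidd1 (-0.255 to 0.0705), Ercc5 (-0.31 to 0.21), Polk (-0.26 to 0.23) and Rrm2b (-0.457 to 0.0357). The causes were not tested.

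Replicate numbers are shared by the genotypes, but nothing in the labels says that they pair the samples, and the deviations of same-numbered libraries had a correlation of -0.11 across genes. With the replicate block 7 of the 32 were higher and 4 lower, where Bax, Phlda3 and Sesn1 (adjusted p = 0.0426, edgeR) were called and Ddb2 was not (-0.77, adjusted p = 0.0670, edgeR), and over all genes 1477 higher and 1444 lower. With the crossed block 6 and 4 were called, and over all genes 1593 and 1747. A fit that leaves 1 library in a genotype assumes that it varies like the other genotype.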
